A study of Mus musculus with 6 samples.

Results

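The 46 genes described here encode the proteins that license DNA replication origins, open them and copy the DNA at the fork, together with the E-type cyclins, the CAF-1 histone chaperone, the histone mRNA binding protein Slbp and the uracil glycosylase Ung. They were taken by name from the 22319 distinct gene symbols on the array, in a list chosen with earlier results of these data known. The array was the Affymetrix Mouse Gene 1.0 ST, where many short probes along a transcript together give its intensity. The deposited table carried 39 of them under their present symbol. The other 7, the Orc genes and Cdc45, stood there under older symbols and were found through their RefSeq accession.

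The cells were c-kit+ cells of mouse bone marrow that MLL-AF9 had transformed. MLL-AF9 is the product of a leukemia translocation that joins MLL, a chromatin regulator, to AF9. In the pMIG group (n = 3 arrays) they received the retroviral vector pMIG, which carries a GFP marker, without an insert, and in the pMIG-TGIF1 group (n = 3 arrays) the same vector with TGIF1, a homeodomain repressor of transcription. Both groups therefore carry the fusion and a retroviral vector, and both were sorted for GFP on day 3 after the first transduction and kept 1 day in medium before 300 ng of RNA was labelled. The strain, age and number of donor animals, the species of the TGIF1 sequence and the origin of the replicates are not given in the sources used here, so each p-value here reflects the spread among 3 arrays a group, which may be technical.

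Replication is prepared in G1, when the origin recognition complex (ORC), Cdc6 and Cdt1 load the MCM2-7 helicase ring onto DNA. At the start of S phase the Dbf4-dependent kinase Cdc7 and cyclin E with its kinase partner switch the ring on, and Cdc45 and the GINS complex join it to form the moving helicase. Primase and polymerase alpha then start new strands, polymerases epsilon and delta extend them on the PCNA clamp, and Fen1 and DNA ligase join the lagging strand pieces. Many of these genes are known targets of E2F transcription factors in cycling cells.

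The replication genes were lower as a group in the arrays labelled pMIG-TGIF1. Of 46 genes 41 fell, 0 rose and 5 did not pass the test, where 13.2% of all 25123 probe sets fell, 11.5% rose and 24.7% changed in either direction (limma, Benjamini-Hochberg adjusted p under 0.05 over the whole array). The median log2 fold change was -0.96 over the 46 genes and 0.01 over all probe sets tested. A fall of at least 2-fold was called in 21 of the 46 genes, against 1.59% of all probe sets. The changes ran from -1.68 (Prim1, 3.20-fold lower) to 0.36 (Orc4, not called), and 45 of 46 genes had a lower mean. In 41 genes the groups did not overlap, with each pMIG-TGIF1 value under each pMIG value, which held for 19.7% of all probe sets. With a single comparison of 3 arrays against 3, an exact permutation test of a single gene cannot give a two-sided p under 0.1.

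**Figure D1:**
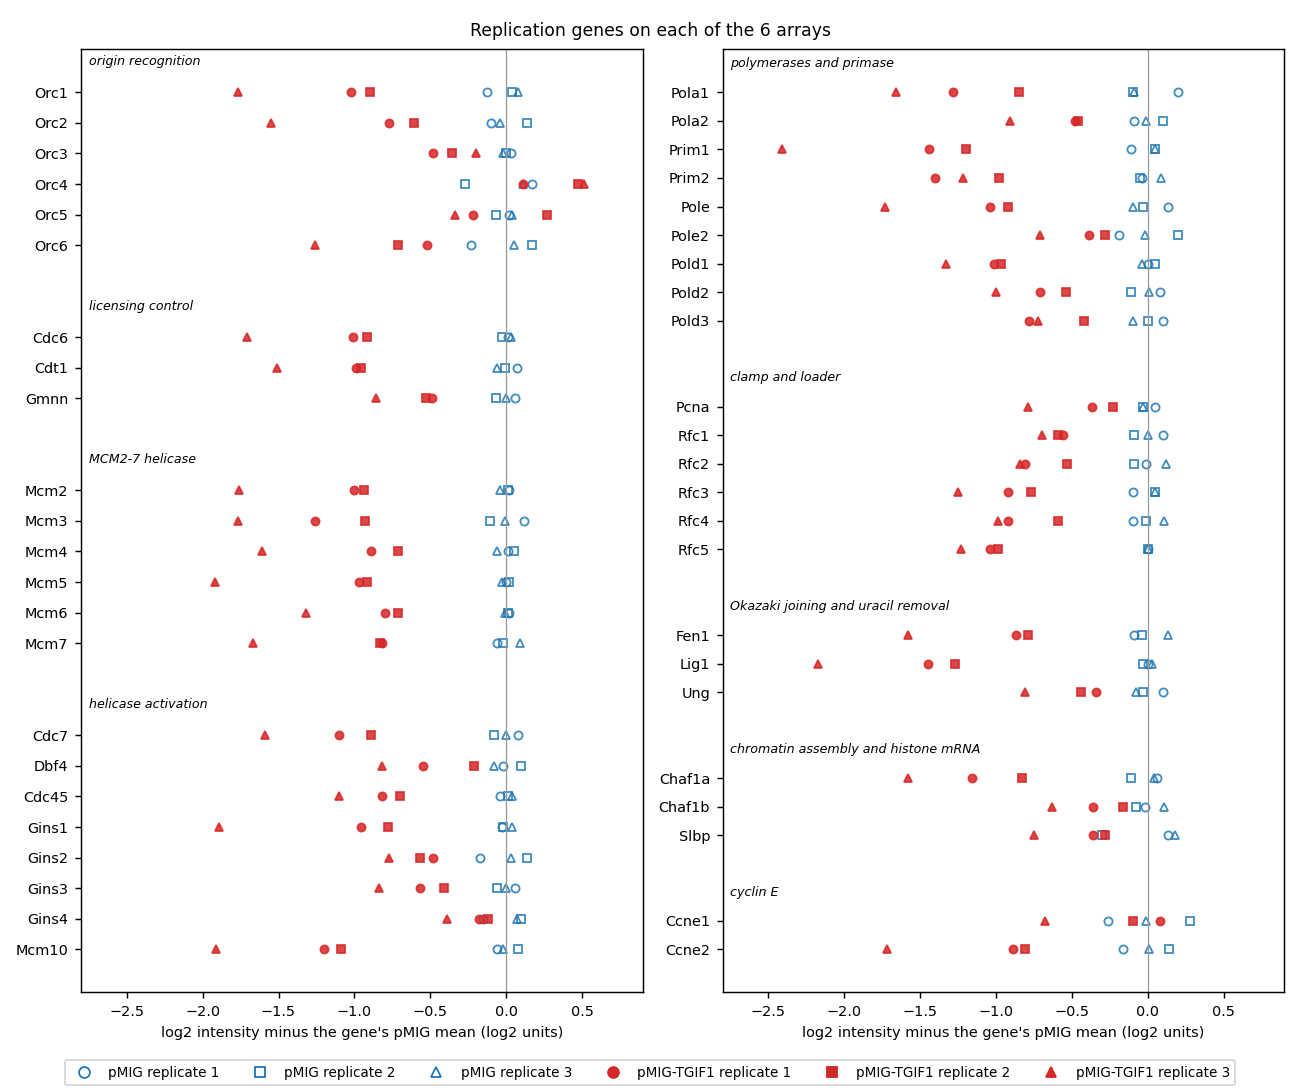
Each row is a gene, grouped by class, and each symbol is an array, as log2 intensity minus the mean of the 3 pMIG arrays (open blue for pMIG, filled red for pMIG-TGIF1, with the symbol shape for the replicate). The red symbols lie left of the blue ones in 41 of 46 rows, the triangle of replicate 3 is the leftmost red symbol in 42, and the exceptions to the separation are Orc4, Orc5, Gins4, Slbp and Ccne1.

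Facts of the whole series bear on these directions. The probe set of Tgif1 itself (10452633) read 319.6, 376.0 and 408.1 in pMIG but 239.1, 239.1 and 258.3 on arrays labelled pMIG-TGIF1, lower where the label says it was added (log2 -0.58 ± 0.11 SE, adjusted p = 0.00286), so each direction here rests on the labels, and nothing shows whether those probes lie within the sequence carried by the vector. The hematopoietic and myeloid markers summed to 16124 to 17510 in pMIG and 20770 to 22608 in pMIG-TGIF1, and were called in both directions. Ptprc (log2 0.64, adjusted p = 0.00136) and Lyz2 (0.49, 0.00347) rose, Mpo fell (-0.91, 0.0168), and Itgam, Spi1 and Cebpa did not pass. The marker list of MLL-AF9 progenitors fell along with the replication genes (5 of 6, summed intensity 4755 to 4944 in pMIG and 2407 to 2670 in pMIG-TGIF1). Of the mast cell and basophil list 1 of 5 fell, Ms4a2 (-2.01, adjusted p = 1.54e-05), and its sum was 289 to 301 against 187 to 208. The erythroid list had 2 of 6 higher (summed 223 to 236 and 246 to 293), as did the T and NK cell list (213 to 221 and 222 to 255). No marker of B cells (206 to 213 over all arrays), megakaryocytes (179 to 198) or stroma and endothelium (317 to 338) was called. Their part in the result was not tested. Less RNA of these genes per cell and fewer cycling cells cannot be told apart in such bulk samples. Centring each array on its median moved the median of all probe sets to -0.10 and that of the 46 genes to -1.07, and changed the calls over the array from 2892 higher and 3308 lower to 2179 and 4870.

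Promoter sequence was not itself used to choose the names. Many of these genes are known E2F targets, however, so their share of E2F-type sites is not independent of that choice. RefSeq windows (GRCm38.p6) of 250 bases before to 50 after a transcript start were at hand for 37 of the 46 genes. An E2F-type word, TTTCCCGC, TTTCGCGC, TTTGCCGC or TTTGGCGC on either strand, stood in the window of 15 of the 37 genes (40.5%), against 3.49% of 15568 tested protein-coding genes. In 9 of the 15 genes a match lay wholly before the start. GC content was higher in the windows of the replication genes (median 63.0%) than in those of all tested protein-coding genes (57.7%), and among 4997 genes in the middle GC range of the replication genes the word was found in 5.16%. Among genes with a window, 4 of 5 MCM2-7 genes and 4 of 7 polymerase and primase genes held it. Both licensing genes with a window, Cdc6 and Cdt1, held it as well. A gene with several windows was counted if any of them held the word. These are matches of letters and not measured binding.

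The stretches below come from genes whose match lies before the start, chosen to span an origin subunit that fell 2.34-fold (Orc1), the origin subunit with the smallest called fall (Orc3), a loader (Cdc6), 2 helicase subunits (Mcm5, Mcm6) and a polymerase (Pola1). They are written 5′ to 3′ on the gene's strand, with the E2F-type words in capitals. Matches on opposite strands can overlap, as they do in Mcm5.
Mcm5, chr8:75109334-75109393, plus strand: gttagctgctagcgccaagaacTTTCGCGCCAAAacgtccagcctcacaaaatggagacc
Mcm6, chr1:128359719-128359778, minus strand: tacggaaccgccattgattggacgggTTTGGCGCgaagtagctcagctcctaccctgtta
Cdc6, chr11:98907987-98908046, plus strand: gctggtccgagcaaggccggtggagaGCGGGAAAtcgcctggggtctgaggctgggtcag
Pola1, chrX:93632260-93632319, minus strand: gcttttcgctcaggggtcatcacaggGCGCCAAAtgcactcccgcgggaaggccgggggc
Orc1, chr4:108579394-108579453, plus strand: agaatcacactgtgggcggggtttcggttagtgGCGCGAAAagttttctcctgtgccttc
Orc3, chr4:34614950-34615009, minus strand: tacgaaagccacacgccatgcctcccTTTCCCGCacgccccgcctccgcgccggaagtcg

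The mitosis genes, which fell as well, differed in these words. An E2F-type word was found for 1 of the 19 mitosis genes with a window (5.26%). The word TTTGAA of the cell cycle homology region (CHR, either strand), known from promoters of late cell cycle genes, stood in 14 of 19 (73.7%), against 7 of 37 replication genes (18.9%) and 17.5% of tested protein-coding genes. Of the 7 replication genes with that word 4 were helicase activation genes, a class in which 5 genes have a window. The CCAAT word, known as the site of NF-Y, was found in 20 of 37 replication genes (54.1%), 18 of 19 mitosis genes (94.7%) and 42.0% of tested protein-coding genes. The median log2 fold change was -1.11 for the 15 replication genes with an E2F-type word and -0.78 for the 22 without, with overlapping ranges (-1.63 to -0.35 and -1.68 to 0.36). A gap of like size stood between the 20 genes with the CCAAT word (-0.98) and the 17 without (-0.64), and for the CHR word the order was the other way (-0.88 for the 7 with and -0.96 for the 30 without). None of these gaps was tested, and Prim1, which changed most, held no E2F-type word in its window.

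**Figure D2:**
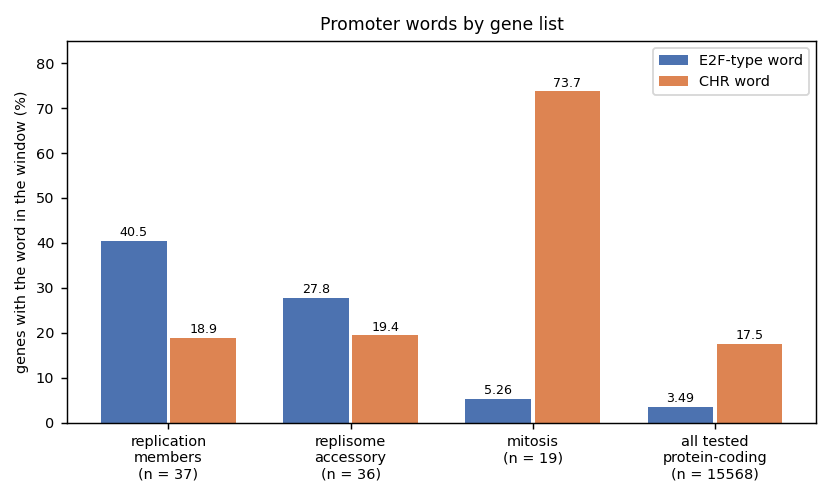
Bars give the percent of genes whose promoter window holds an E2F-type word (blue) or the CHR word (orange), by gene list, with the number of genes that have a window under each pair of bars. The E2F-type word reaches 40.5% in the replication genes and 5.26% in the mitosis genes, while the CHR word reaches 18.9% and 73.7%.

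Origin recognition genes were the class with the widest spread. ORC is the ring of subunits that marks where replication can start, and Orc1 is its largest, ATP-binding subunit. Of 6 genes 4 fell, with a class median of -0.59. Orc1 read 127.3, 142.5 and 146.9 in pMIG and 68.4, 74.5 and 40.8 in pMIG-TGIF1, a fall of 2.34-fold (95% CI 1.74 to 3.15, adjusted p = 0.000961). Orc2 read 646.5, 767.7 and 676.6 against 406.3, 456.0 and 237.2 (1.97-fold lower, adjusted p = 0.00531). Orc6, the smallest subunit, went from 901.7, 1196.7 and 1095.5 to 738.1, 646.1 and 441.6 (1.78-fold lower, adjusted p = 0.00613). In these 3 genes the groups did not overlap and pMIG-TGIF1 replicate 3 was the lowest array.

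The remaining ORC subunits had smaller differences, and only Orc3 of them was called. Orc3 read 988.2, 968.1 and 958.0 in pMIG and 693.7, 752.4 and 845.6 in pMIG-TGIF1, a 1.28-fold fall (adjusted p = 0.0252) in which replicate 3 was the highest of its group. Orc4 read 491.0, 362.6 and 471.0 against 472.2, 603.7 and 623.4, a log2 difference of 0.36 ± 0.14 (SE) that was not called (adjusted p = 0.101). It was called with quantile normalization (0.44, adjusted p = 0.0492) and without pMIG-TGIF1 replicate 1 (0.49, adjusted p = 0.0316). Orc5 read 253.2, 237.0 and 255.2 against 214.1, 301.1 and 196.6 (log2 -0.09, 95% CI -0.42 to 0.23, adjusted p = 0.737). The arrays overlapped in Orc4 and Orc5. As a ratio within each array, relative to the pMIG mean, Orc4 over Orc1 was 1.13, 1.36 and 2.27 on the log2 scale in the arrays labelled pMIG-TGIF1 and 0.29, -0.31 and 0.02 in pMIG. This pair and those below were chosen after their values were seen and carry no test.

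Licensing control genes, which decide when the helicase may be loaded, all fell (3 of 3, median -1.15). Cdc6, the ATPase that loads the helicase with ORC, read 444.2, 430.8 and 447.7 in pMIG and 218.3, 232.6 and 134.8 in pMIG-TGIF1 (2.32-fold lower, adjusted p = 0.000593). Cdt1, its partner in loading, read 913.9, 865.2 and 836.2 against 439.6, 447.6 and 307.4 (2.22-fold lower, adjusted p = 0.000194). Gmnn encodes geminin, which binds Cdt1 and blocks loading after S phase has begun. It also fell, from 379.8, 346.9 and 364.6 to 260.0, 252.8 and 200.6 (1.54-fold, adjusted p = 0.00251). Activator and inhibitor of licensing were thus both lower, with no overlap of the groups in any of the 3 genes.

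The MCM2-7 genes all fell. These 6 subunits form the ring that unwinds DNA, and the falls lay between 1.93-fold (Mcm6) and 2.50-fold (Mcm3), with a median of -1.17. Mcm3 read 2779.6, 2376.2 and 2536.9 in pMIG and 1069.1, 1345.2 and 750.0 in pMIG-TGIF1 (95% CI 1.89 to 3.29, adjusted p = 0.000382). Mcm5 read 1492.4, 1513.6 and 1454.6 against 758.9, 787.8 and 393.9 (2.41-fold lower, adjusted p = 0.00175). Mcm2 read 1996.2, 1981.7 and 1916.5 against 982.2, 1024.5 and 579.8 (2.35-fold lower, adjusted p = 0.000729). In each of the 6 genes replicate 3 was the lowest array, and the 95% confidence intervals of all 6 overlapped. Mcm7 fell 2.16-fold and Mcm4 2.09-fold. Mcm6, with the smallest fall, read 3458.4, 3447.8 and 3386.5 against 1971.3, 2086.9 and 1366.5. The log2 ratio of Mcm6 to Mcm3, relative to the pMIG mean, was 0.46, 0.21 and 0.44 in the arrays labelled pMIG-TGIF1. In pMIG it lay between -0.11 and 0.11. The median SD of these genes was 0.04 on the log2 scale among the pMIG arrays and 0.47 among the arrays labelled pMIG-TGIF1.

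Helicase activation genes fell in 7 of 8 cases (median -0.74), by amounts that varied within each complex. Mcm10, which is needed for the loaded helicase to start unwinding, read 679.0, 748.8 and 697.1 in pMIG and 308.5, 332.6 and 188.4 in pMIG-TGIF1 (2.64-fold lower, adjusted p = 0.000295). Cdc45, a constant part of the moving helicase, read 1190.6, 1233.2 and 1261.7 against 693.4, 754.9 and 572.4 (1.84-fold lower, adjusted p = 0.000270). Both genes had all 3 arrays labelled pMIG-TGIF1 below pMIG. The kinase gene Cdc7 read 165.6, 148.1 and 156.9 against 72.8, 84.7 and 52.1 (2.29-fold lower, adjusted p = 0.000307). Its activating subunit Dbf4 fell from 658.1, 716.1 and 628.7 to 456.2, 575.5 and 376.7 (1.44-fold, adjusted p = 0.0205), and the ratio of Dbf4 to Cdc7 was higher by 0.56, 0.68 and 0.77 on the log2 scale in the arrays labelled pMIG-TGIF1.

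GINS is a complex of 4 subunits that bridges the helicase and polymerase epsilon, and 3 of its 4 genes fell. Gins1 read 545.8, 548.3 and 574.0 in pMIG and 286.7, 324.9 and 150.0 in pMIG-TGIF1 (2.31-fold lower, 95% CI 1.61 to 3.30, adjusted p = 0.00320). Gins2 and Gins3 each fell 1.52-fold (adjusted p = 0.00293 and 0.00320). Gins4 read 967.8, 1149.1 and 1125.4 against 945.8, 985.9 and 818.8, a log2 difference of -0.24 ± 0.11 (SE) that did not pass (adjusted p = 0.158) and was called with array median centring (-0.35, adjusted p = 0.0475). The log2 ratio of Gins4 to Gins1, relative to the pMIG mean, was 0.77, 0.65 and 1.49 in the arrays labelled pMIG-TGIF1 and between -0.13 and 0.11 in pMIG.

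All 9 polymerase and primase genes fell (median -1.11). Prim1, the catalytic subunit of the primase that makes the RNA start of each new strand, fell most of the 46 genes, from 1361.2, 1524.0 and 1515.9 to 542.4, 639.1 and 276.2 (3.20-fold, 95% CI 2.18 to 4.69, adjusted p = 0.000656). Prim2, the large primase subunit, read 572.1, 566.5 and 625.0 against 222.7, 298.6 and 252.8 (2.29-fold lower, adjusted p = 5.02e-05). Replicate 3 was the lowest array for Prim1 and lay between the other two for Prim2. In each of the 3 polymerases the estimate for the catalytic gene was larger than for its smaller partners, a difference that was not tested. Pola1, the catalytic subunit of polymerase alpha, fell 2.40-fold and Pola2 1.53-fold. Pole, the leading strand polymerase, fell 2.34-fold and its partner Pole2 1.38-fold. Pold1, the lagging strand polymerase, fell 2.15-fold, Pold2 1.68-fold and Pold3 1.56-fold. The 6 arrays of Pold1 were tight, with 691.2, 713.2 and 671.1 in pMIG and 341.5, 351.9 and 275.1 in pMIG-TGIF1 (adjusted p = 5.65e-05). The log2 ratio of Pole2 to Pole was 0.65, 0.64 and 1.02 and that of Pola2 to Pola1 0.80, 0.39 and 0.75 in the arrays labelled pMIG-TGIF1, all above the pMIG arrays. These probe sets differ in brightness and in their probes, and the effect of either on the size of a fold was not tested.

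The clamp and its loader fell in 6 of 6 genes (median -0.78), with a median SD of 0.19 among the arrays labelled pMIG-TGIF1. Rfc5, a small subunit of the loader that opens the clamp, read 1088.4, 1089.1 and 1092.7 in pMIG and 530.4, 547.1 and 464.2 in pMIG-TGIF1 (2.13-fold lower, adjusted p = 2.55e-05, the smallest of the 46 genes). Rfc3 fell 1.98-fold, Rfc4 1.78-fold and Rfc2 1.66-fold. Rfc1, the large subunit, read 1071.8, 941.6 and 1005.4 against 679.0, 666.1 and 615.7 (1.54-fold lower, adjusted p = 0.000793). The sliding clamp gene Pcna had the smallest estimate of the class and fell from 4996.2, 4743.2 and 4751.2 to 3752.0, 4124.6 and 2801.9 (1.37-fold, 95% CI 1.12 to 1.69, adjusted p = 0.0308). A second probe set with the same accession as Pcna (10461391) fell 1.40-fold (adjusted p = 0.0279). What each of these probe sets reads beyond Pcna, such as a processed copy of the gene, is not given in the sources used here.

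Of the joining and uracil removal genes all 3 fell. Lig1, the ligase that seals lagging strand pieces, read 1099.1, 1072.4 and 1122.5 in pMIG and 401.3, 456.3 and 244.3 in pMIG-TGIF1 (3.09-fold lower, 95% CI 2.30 to 4.15, adjusted p = 0.000151). Fen1, the nuclease that trims the flap before ligation, read 768.7, 799.2 and 896.4 against 449.8, 475.4 and 273.5 (2.11-fold lower, adjusted p = 0.00159). Ung, which removes uracil from DNA, fell from 179.7, 164.7 and 159.2 to 132.7, 123.7 and 95.9 (1.44-fold, adjusted p = 0.0111).

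**Figure D3:**
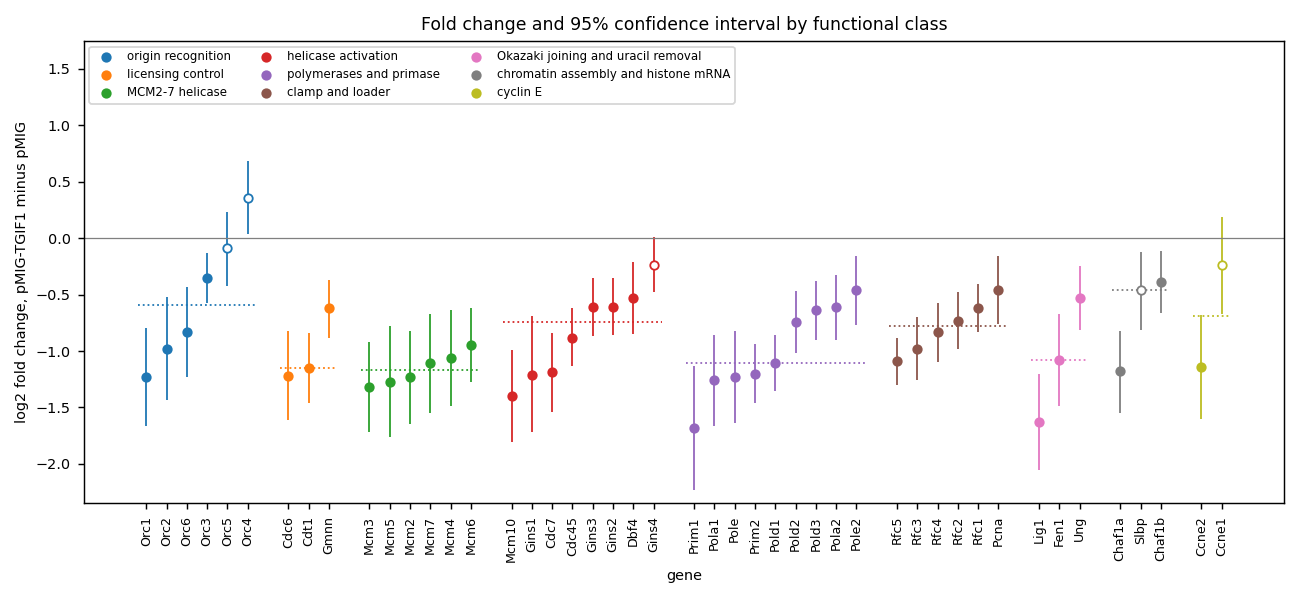
Points are log2 fold changes of pMIG-TGIF1 against pMIG from limma with 95% confidence intervals, coloured by class, with filled points called at an adjusted p under 0.05 and a dotted line at each class median. The MCM2-7 median is -1.17 and that of origin recognition is -0.59, and the 5 open points are Orc4, Orc5, Gins4, Slbp and Ccne1.

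The chromatin assembly and histone mRNA class and the E-type cyclins each held a gene that was not called. CAF-1 places histones on new DNA behind PCNA. Its large subunit gene Chaf1a read 597.1, 529.8 and 587.5 in pMIG and 256.2, 322.9 and 191.3 in pMIG-TGIF1 (2.27-fold lower, adjusted p = 0.000423). Chaf1b, its middle subunit, fell from 726.3, 695.8 and 790.3 to 572.5, 656.3 and 476.1 (1.31-fold, adjusted p = 0.0441). Slbp, which binds the stem-loop of histone mRNAs, read 1030.1, 766.3 and 1065.0 against 735.2, 778.7 and 560.1, with overlapping groups (log2 -0.46, adjusted p = 0.0544). A second probe set with the accession of Slbp (10412559) fell 1.60-fold (adjusted p = 0.00230), so the probe sets of Slbp disagree on the call.

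Ccne2 and Ccne1 encode the cyclins that bind Cdk2 at the entry into S phase. Ccne2 read 347.0, 426.9 and 391.6 in pMIG and 209.1, 220.7 and 117.4 in pMIG-TGIF1 (2.20-fold lower, adjusted p = 0.00234). Ccne1 read 389.9, 567.4 and 466.1 against 494.3, 436.5 and 291.2, with wide overlap (log2 -0.24, 95% CI -0.67 to 0.19, adjusted p = 0.453). Without pMIG-TGIF1 replicate 3 the difference in Ccne1 was -0.01, and with any single array left out it ran from -0.40 to -0.01. The log2 ratio of Ccne1 to Ccne2, relative to the pMIG mean, was 0.96, 0.71 and 1.03 in the arrays labelled pMIG-TGIF1 and between -0.11 and 0.13 in pMIG.

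The firmness of the calls differed between genes. Leaving out any single array kept the call in 35 of the 41 genes. Orc3 (adjusted p = 0.0631 to 0.0892 where lost), Dbf4 (0.0502 to 0.0802), Pole2 (0.0823 to 0.125), Pcna (0.0607 to 0.0980), Ung (0.0510, without pMIG replicate 1) and Chaf1b (0.0709 to 0.156) lost it without at least 1 array. An ordinary linear model without limma's sharing of variance between genes called 14 of the 46 genes lower, against 6.56% of all probe sets. These 14 were Rfc1, Rfc2, Rfc3, Rfc4 and Rfc5, Prim2, Pold1, Lig1, Cdt1, Mcm3, Mcm10, Cdc7, Cdc45 and Chaf1a. Of the 46 genes, 39 have in the authors' deposited table a p at or under 0.05 with a negative fold change, against 16.3% of all probe sets.

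The replication genes did not move by the same amount on the 3 arrays labelled pMIG-TGIF1. Their array pMIG-TGIF1 replicate 3 was the lowest of its group in 42 of 46 genes (91.3%), against 30.9% of all probe sets. That share was 81% among 42 accessory replication genes, 68.2% among 22 genes of S phase entry and 65% among 20 mitosis genes. It was 41.7% among 12 polymerases that bypass damage or fill gaps. These lists are described below. The median over the 46 genes, relative to pMIG, was -0.83, -0.71 and -1.24 in replicates 1, 2 and 3, and without replicate 3 the median log2 fold change was -0.76 with 37 genes called lower. The median SD among the arrays labelled pMIG-TGIF1 was 0.31 over the 46 genes and 0.13 over all probe sets, while among the pMIG arrays it was 0.09 and 0.10. The same array had the lowest limma array weight (0.56, others 0.98 to 1.52). Over all probe sets its median lay at 0.03, and its progenitor markers lay at -0.72, above the -0.97 and -0.99 of replicates 1 and 2. The part of array quality in this difference was not tested.

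The classes differed in how far replicate 3 stood apart. MCM2-7 genes lay at -0.93 and -0.87 in replicates 1 and 2 and at -1.72 in replicate 3, and the joining and uracil removal genes at -0.87, -0.79 and -1.58. Clamp and loader genes lay at -0.87, -0.59 and -0.91, and polymerase and primase genes at -1.02, -0.85 and -1.22. Without replicate 3 the class medians were -0.89 for MCM2-7, -0.98 for polymerases and primase, -0.71 for clamp and loader and -0.52 for origin recognition, so the MCM2-7 median was then no longer below that of the polymerases. The largest extra shift was that of Prim1 (-1.09), followed by Gins1 (-1.02) and Mcm5 (-0.97). Prim2 (-0.03), Rfc1 (-0.13) and Pold3 (-0.12) had the smallest further shifts downward, and Orc3 (0.23) and Orc4 (0.22) were higher in replicate 3. Across the 46 genes the extra shift and the change in replicates 1 and 2 correlated with r = 0.51 (Spearman 0.44, as a description, since both hold the mean of replicates 1 and 2 and genes are not independent). Mean log2 level and log2 fold change had r = -0.02 across the 46 genes.

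**Figure D4:**
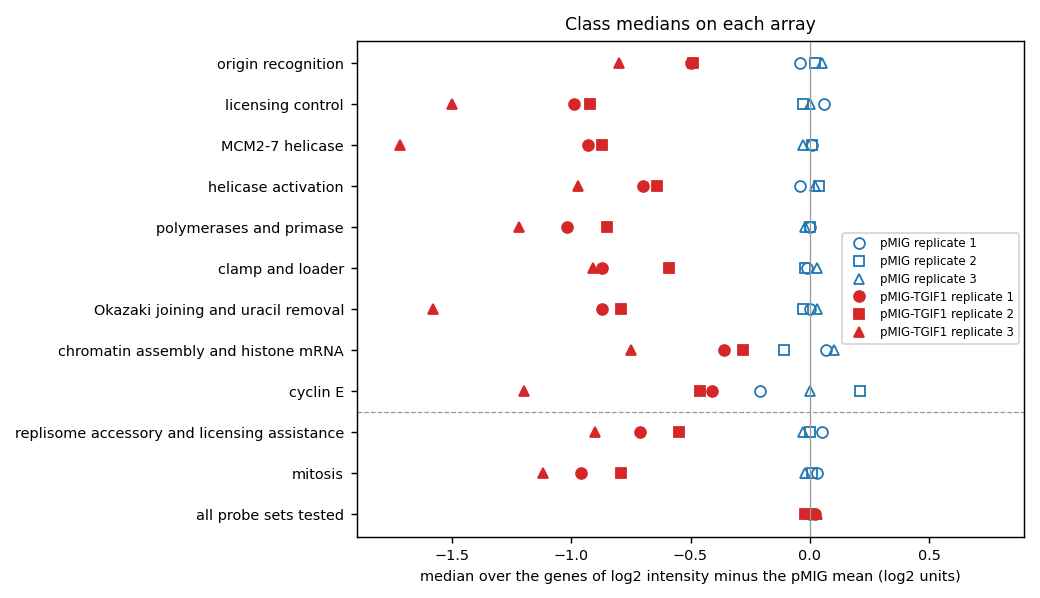
Each row is a class or list and each symbol an array, as the median over its genes of log2 intensity minus the gene's pMIG mean, with open blue for pMIG and filled red for pMIG-TGIF1. Replicate 3 stands apart in MCM2-7 (-1.72 against -0.93 and -0.87) and hardly in clamp and loader (-0.91 against -0.87 and -0.59), and the medians of all probe sets lie within 0.03 of 0.

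**Figure D5:**
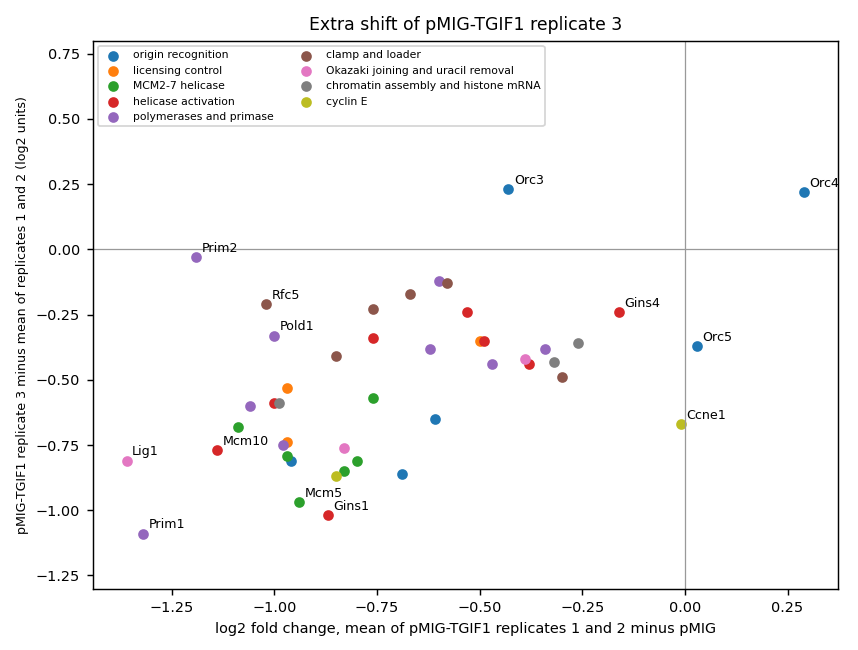
Points are the 46 genes, with the log2 fold change from pMIG-TGIF1 replicates 1 and 2 on the x axis and the further shift of replicate 3 on the y axis, coloured by class. Prim1, Gins1 and Mcm5 lie lowest, while Prim2 and Rfc5 combine a clear change in replicates 1 and 2 with a small further shift.

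Other genes of the replication machinery moved the same way. Of 42 accessory genes of the fork, of origin firing and of histone supply, 37 fell and 0 rose, with a median of -0.68. This list and those below were chosen with earlier results of these data known, so they are no independent support. Atad5, which unloads PCNA, changed by -1.71 ± 0.15 (SE) on the log2 scale (adjusted p = 2.71e-05), and the fork mediator Clspn by -1.51 ± 0.19. Timeless, another fork protection gene, fell (-1.20 ± 0.12), as did the origin firing factor Ticrr (-1.17 ± 0.13), the Fanconi gene Fanci (-1.24 ± 0.13) and the maintenance methyltransferase Dnmt1 (-1.04 ± 0.13). Rpa3, the smallest subunit of the single-strand binding complex (-0.14, adjusted p = 0.428), the nuclease Dna2 (-0.20, 0.330), the helicase Mcm9 (-0.27, 0.248) and the clamp loader subunit Chtf8 (-0.25, 0.120) did not pass. Polymerases that bypass damage or fill gaps were called in both directions, with 4 of 12 lower and 2 higher, against 13.2% and 11.5% of all probe sets. Polq (-1.58 ± 0.17), Polh (-1.33 ± 0.14), Rev1 (-0.70 ± 0.09) and Polb (-0.48 ± 0.12) fell, while Primpol (0.61 ± 0.12) and Rev3l (0.38 ± 0.11) rose. Polm (-0.02), Poli (0.03), Polk (0.10) and Poll (-0.17) did not pass.

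Genes that control entry into S phase were called in both directions as well, with 11 of 22 lower, 4 higher and a median of -0.36. Over all probe sets 13.2% were lower and 11.5% higher. Dtl, which directs the destruction of Cdt1 on PCNA, fell (-1.42 ± 0.17), as did the cyclin Ccna2 (-0.82 ± 0.10), the ubiquitin ligase subunit Skp2 (-0.82 ± 0.12), the phosphatase Cdc25a (-1.02 ± 0.15), E2f8 (-1.10 ± 0.17) and the pocket protein Rbl1 (-0.96 ± 0.18). Ddb1 (-0.04), Cul4a (-0.13) and Cul4b (-0.14), which form the ligase that Dtl serves, and the inhibitor Cdkn1b (0.11) did not pass. The 4 genes that rose, named here after their values were seen, were the inhibitors of cyclin-dependent kinases Cdkn1a (0.72 ± 0.15) and Cdkn1c (0.48 ± 0.10), the ubiquitin ligase subunit Fbxw7 (0.51 ± 0.11) and the retinoblastoma gene Rb1 (0.40 ± 0.12). In the mitosis list 20 of 20 genes fell with a median of -0.93, and the array medians were -0.96, -0.79 and -1.12, so that replicate 3 stood 0.23 below the other arrays of its group (median over genes) where the replication genes stood 0.47 below. Among them Kif11 (-1.56 ± 0.16), Mki67 (-1.42 ± 0.14), Nek2 (-1.28 ± 0.12), Ckap2l (-1.27 ± 0.11), Kif23 (-1.07 ± 0.09) and Aurka (-1.06 ± 0.11) had the smallest p, and Ccnb2 (-0.43), Bub1 (-0.44), Espl1 (-0.62) and Plk1 (-0.63) the largest. The difference between these lists was not tested.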

How the data were processed

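The deposited values are intensities that the authors obtained with RMA in Partek, per the submitters' processing notes, which give no version or setting. The authors' deposited p-values, to 2 decimals, and signed fold changes come from a test that no source used here names. The deposited tables held the same intensities for 28853 probe sets (largest difference 0). Probe sets were named by accession, current symbol or older symbol through a RefSeq gene table, and 25123 with a symbol were tested. The log2 of each intensity was modelled with limma 3.58.1 (lmFit, eBayes) in R 4.3.3 over all 6 arrays, without a filter on dim probe sets. Calls required a Benjamini-Hochberg adjusted p under 0.05, and SE and intervals are those of the moderated fit. For a gene with several probe sets the one with the highest mean stands. All 46 members are named, and of each other list up to 6 called genes with the smallest p and 4 genes with the largest. Members, classes and lists were chosen with earlier results of these data known. The fit was tested on simulated data, drawn independently for each probe set with the same spread in both groups. That setting does not cover the unequal spread of the replication genes or their shift on pMIG-TGIF1 replicate 3. The alternatives are given in the closing section. The number of arrays limits the precision, and the scanner files were not used here. Promoter windows are those of RefSeq, and the start used was the gene's outermost one in 60.4% of them. Each was searched on both strands for the words given in the report.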

Additional observations from a re-analysis of the deposited data

How the results depend on the processing

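Of the 46 genes, 41 were called lower in the main fit and 36 to 41 when each array was left out in turn. The count was 39 with the replicate block, 40 with quantile normalization, 43 with array median centring, 42 with 1 probe set per gene, with the dimmest 30% left out and with limma's trend and robust options, and 41 with array weights and with the other deposited table. Lower calls over all probe sets numbered 3308 in the main fit, 2957 with the replicate block and 3193 with quantile normalization. Array median centring gave 4870, so the rise to 43 came with more lower calls over the whole array. Array weights gave 3354, the trend and robust options 3419, and single arrays left out 2537 to 3187. Among the probe sets kept, 1 per gene gave 3054 and leaving out the dimmest 30% gave 3494. The replicate number as a block ended the calls of Orc3 (adjusted p = 0.0536) and Chaf1b (0.0753). It moved the count of the chromatin assembly and histone mRNA class to 1. The correlations of same-numbered deviations were -0.19, -0.11 and -0.05. With 3 arrays a group these cannot show whether the numbers pair the samples, and the sources used here do not say. Without moderation 14 genes were called, with 5 in clamp and loader, 3 in helicase activation and 2 in polymerases and primase. Licensing control, MCM2-7, joining and uracil removal, and chromatin assembly and histone mRNA had 1 each, and origin recognition and cyclin E had 0. The adjusted p-values of the genes lost there ran from 0.0506 to 0.176, and the fold changes are those of the main fit by construction. Quantile normalization also left 1 called gene in the chromatin assembly and histone mRNA class (Chaf1b lost, adjusted p = 0.0976). With an array left out, the median of the 46 genes ran from -1.08 to -0.76. The count of the chromatin assembly and histone mRNA class then ran from 1 to 3. Orc5, not called in any of these fits, ran from -0.28 to 0.03. Slbp was called with array median centring (adjusted p = 0.0209), the trend and robust options (0.0418), the dimmest 30% left out (0.0433), 1 probe set per gene (0.0452), and without pMIG replicate 2 (0.0180) or pMIG-TGIF1 replicate 2 (0.0441). Where not stated, the cause was not tested.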
